A study of Rattus norvegicus with 2 samples.

Results

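The genes described here set whether a hypothalamic neuron uses GABA or glutamate as its fast transmitter, and which way chloride flows when a GABA-A receptor opens. They are 9 genes, picked by name for these roles, with earlier results of these data known: Gad1, Gad2, Slc32a1, Slc6a11 and Abat for GABA, Slc17a6 and Slc17a8 for glutamate, and Slc12a2 and Slc12a5 for chloride. All 9 were found among the 22777 genes of the mRNA table, through 10 of its 26324 transcripts. Hypothalamus of female Sprague Dawley rats had been taken at 2 stages, prepubertal (postnatal day 25) and pubertal (postnatal day 35, in the first estrus), and the methods give 3 animals for each. The labels name no mutation or treatment, and the stages differ in age as well as in puberty, which cannot be told apart. Each stage has a single column of values, and the sources used here do not say how its animals were merged, so a difference between the stages has no replicate check and no p-value is given.

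GABA is made from glutamate by the glutamate decarboxylases Gad1 (GAD67) and Gad2 (GAD65), is loaded into vesicles by Slc32a1 (VGAT), is taken up again by transporters such as Slc6a11 (GAT-3) of astrocytes, and is broken down by the transaminase Abat. Glutamate is loaded into vesicles by Slc17a6 (VGLUT2) in most hypothalamic glutamate neurons and by Slc17a8 (VGLUT3) in a few scattered populations. Slc12a2 (NKCC1) carries chloride into a cell and Slc12a5 (KCC2), which is specific to neurons, carries it out, and the balance of both sets whether GABA excites or inhibits a neuron. In the hypothalamus, GABA and glutamate are the main fast inputs to the neurons that release gonadotropin-releasing hormone (GnRH). Slc12a2 is also made in glia and epithelia, so its level in whole tissue is not that of neurons alone.

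The values are FPKM, the number of sequenced fragments corrected for transcript length and library size, which the authors estimated with Cuffdiff. Low FPKM of genes with 1 transcript fell on steps of one size for a given transcript length, and the size of the step gave the number of sequenced fragments behind each value. The FPKM were scaled to 20766355 fragments in the prepubertal and 16209835 fragments in the pubertal library. Of the genes with 1 to 200 fragments, 92.9% before puberty and 92.7% at puberty came out as whole numbers within 0.05. The 95% intervals below come from these fragment numbers and cover counting error only. They hold no spread between animals, and copies made by PCR are not independent fragments.

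Markers of the labelled tissue were present, which does not by itself set it apart from other tissue. All 13 hypothalamic markers looked for (among them Avp, Oxt, Pomc, Hcrt, Pmch and Gnrh1) were above 0 in both libraries. Markers of neighbouring regions were also present. The summed FPKM of 5 telencephalic excitatory markers was 32.2 before puberty and 16.1 at puberty, and that of 6 thalamic markers was 200.2 and 156. Most of the first sum was Slc17a7. The summed FPKM of the 13 hypothalamic markers was 2810 and 4229, with Pmch (melanin-concentrating hormone) from 1675 to 2723 and Oxt (oxytocin) from 411 to 686 FPKM, the 2 of this list past 1.5-fold. These 2 genes made up most of the difference in that sum, and of the 13 markers 10 were higher and 3 (Avp, Gnrh1 and Nkx2-1) lower. With equal Actb, a scaling that raises every pubertal value, 8 of the 13 were past 1.5-fold, all higher. The median log2 ratio was then 0.61 over the hypothalamic and -0.0066 over the thalamic markers. Over all genes with a mean FPKM of at least 1 it was 0.36, and their share past 1.5-fold was not computed. The part of these markers in the values below was not tested. In whole tissue, fewer cells of a type and less RNA per cell cannot be told apart.

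In both libraries the vesicular transporter Slc17a6 had the highest level of the 9 genes and Slc17a8 the lowest. Before puberty Slc17a6 was at 206 FPKM, followed by Abat at 112, Gad2 at 106, Slc6a11 at 90.7, Gad1 at 85.4, Slc12a2 at 68.7, Slc12a5 at 62.1 and Slc32a1 at 33.6 FPKM. Slc17a8 was at 2.09 FPKM. In this order the counting intervals of the neighbours Abat and Gad2, and of Slc6a11 and Gad1, overlapped. At puberty Slc12a2 took rank 4, above Gad1 and Slc6a11, and Abat and Gad2 again overlapped. Apart from Slc17a8, each of the genes lay above 81.3% of all genes of the table in each library. The 2 genes that share the work of making GABA were thus within 1.45-fold of each other at both stages.

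**Figure D1:**
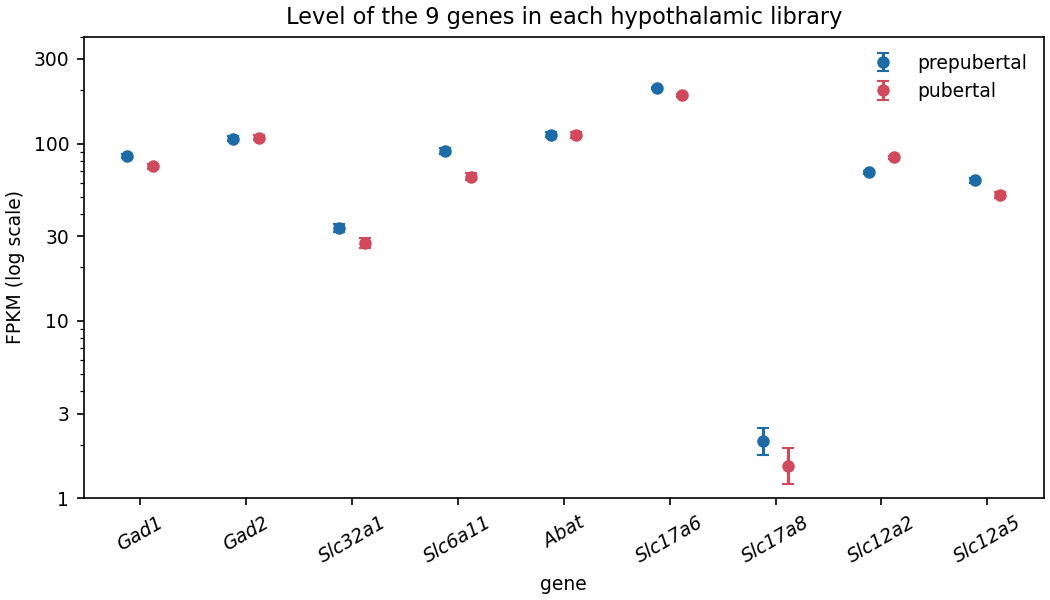
Level of each gene in FPKM (vertical axis, log scale) in the prepubertal and the pubertal library, with 95% counting intervals that do not include the spread between rats. Slc17a6 is highest at 206 and 188 FPKM and Slc17a8 lowest at 2.09 and 1.53 FPKM, and Slc12a2 is the gene whose pubertal point lies clearly above the prepubertal one.

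None of the 9 genes differed by 1.5-fold between the stages, as 0 were past this size in FPKM + 1 and 3.29% of all genes were (749 of 22777), 1.43% higher and 1.86% lower at puberty. Of the 13804 genes with a mean FPKM of at least 1, a level that all 9 genes reach, 4.18% were past 1.5-fold. At 2-fold the count of the 9 genes was 0 too, with 0.681% of all genes past 2-fold. Of the 9 genes, 7 were lower and 2 higher at puberty, where 51% of those 13804 genes were lower and 49% higher. The counting intervals of Abat, counted as lower (0.941 to 1.04), and Gad2, counted as higher (0.968 to 1.07), include 1. Over all genes, with those at 0 in both libraries, 40.4% were lower and 38.9% higher. The median of log2((pubertal FPKM + 1) / (prepubertal FPKM + 1)) was -0.19 over the 9 genes and -0.0062 over the 13804 genes. Scaled to equal Actb, the gene used for quantitative PCR in the study, every pubertal value is multiplied by 1.32. The median was then 0.21 over the 9 genes and 0.36 over the 13804 genes, so that the 9 stayed below the expressed genes, while 2 of the 9 and 9.67% of the 13804 were below 0. Those 2 were Slc6a11 and Slc17a8. The log2 ratios of Gad1, Slc32a1, Abat, Slc17a6 and Slc12a5, below 0 at the deposited scaling, were all above 0 under this one. The share of all genes past 1.5-fold was not computed with equal Actb, so counts past it at that scaling have no share beside them. Actb itself was at 763 and 576 FPKM. Of 6 reference genes, Actb among them, 4 were higher and 2 (Actb and Ywhaz) lower at puberty (median log2 ratio 0.097).

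At the deposited scaling Slc6a11 had the largest difference of the 9. Slc6a11 (ENSRNOG00000005697) encodes GAT-3, the GABA transporter of astrocyte processes. It was at 90.7 FPKM before puberty (3401 fragments) and 64.9 FPKM at puberty (1905 fragments), 0.715 times the prepubertal level with a counting interval of 0.676 to 0.757. Among 2360 genes within 2-fold of its mean level, 2.25% had a ratio as low or lower. The log2 ratio was -0.48, and was -0.47 with equal medians, -0.38 with equal neuron markers and -0.077 with equal Actb. The counting interval holds for the deposited scaling only. None was derived with equal Actb, so the small value there is not shown to be beyond counting error. Its rank did not hold: with equal neuron markers Slc12a2 differed by as much (0.38), and with equal Actb Slc12a2 had the largest difference (0.68).

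The astrocyte markers did not share this difference as a list. Of 8 astrocyte markers, 5 were higher and 3 lower at puberty, with a median log2 ratio of 0.15, and their summed FPKM was 2529 and 2761. At the deposited scaling the gap junction gene Gja1 was the 1 marker past 1.5-fold, from 106 to 66.3 FPKM. With equal neuron markers 0 were past it (Gja1 at -0.57). With equal Actb 3 were, all higher, with Gja1 at -0.27. The median was then 0.56, against 0.36 over the 13804 genes with a mean FPKM of at least 1.

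By the likeness of the log2 ratio, which over 2 libraries is a single number, the genes nearest to Slc6a11 among the 109 listed genes with a mean FPKM of at least 1 were Rbfox3 at -0.48, Stmn2 at -0.46 and Slc1a2 at -0.54. Rbfox3 and Stmn2 are neuronal genes. Slc1a2 encodes GLT-1, the main glutamate transporter of astrocytes, and was at 374 FPKM before puberty and 258 FPKM at puberty, 0.689 times (interval 0.667 to 0.711). Slc1a3, the other glutamate transporter of astrocytes (GLAST), was at 249.9 and 250.6 FPKM. At the deposited scaling Slc6a11 and Slc1a2 thus differed beyond counting error and Slc1a3 did not, whereas with equal Actb Slc1a3 had the largest log2 ratio of these at 0.41, against -0.077 for Slc6a11 and -0.13 for Slc1a2.

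The other GABA genes of the 9 differed less than Slc6a11 at the deposited scaling, and more with equal Actb, where Gad1 was at a log2 ratio of 0.21, Gad2 at 0.42, Slc32a1 at 0.11 and Abat at 0.39. Gad1 (ENSRNOG00000000007) was at 85.4 FPKM before puberty (5216 fragments) and 74.6 FPKM at puberty (3560 fragments), 0.873 times (interval 0.836 to 0.911). Gad2 (ENSRNOG00000018200) was at 106.4 FPKM (3778 fragments) and 108 FPKM (3005 fragments), 1.02 times (0.968 to 1.07). The interval of Gad2 includes 1 and that of Gad1 does not. GAD67, the product of Gad1, supplies most GABA of the cell, and GAD65, the product of Gad2, is bound to vesicles at the terminal. The ratio of Gad1 to Gad2 was 0.803 before puberty and 0.690 at puberty, 0.859 times with a counting interval of 0.806 to 0.916.

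Slc32a1 (ENSRNOG00000015393), which fills vesicles with GABA and glycine, was at 33.6 FPKM before puberty (1484 fragments) and 27.4 FPKM at puberty (947 fragments), 0.815 times (interval 0.751 to 0.885). Of 4642 genes at a like level 10.8% had a ratio as low or lower, so a difference of this size was common between these libraries. Abat (ENSRNOG00000002636), the mitochondrial enzyme that degrades GABA, was at 112 FPKM (3426 fragments) and 111 FPKM (2658 fragments), 0.990 times (0.941 to 1.04). For Abat no difference was detectable at this depth.

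**Figure D2:**
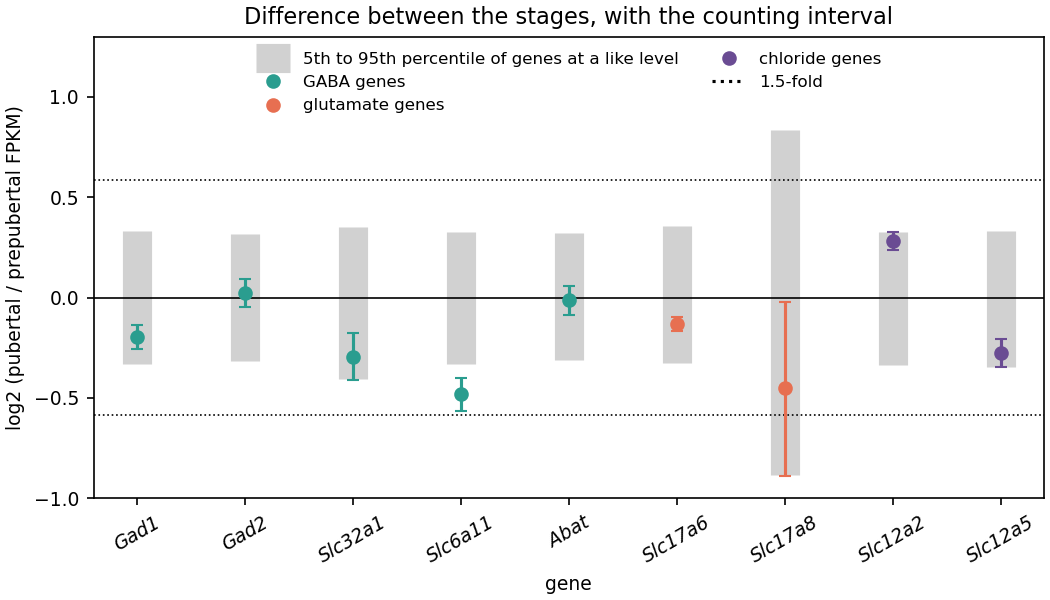
Log2 of the pubertal over the prepubertal FPKM for each gene, with 95% counting intervals, over grey bars from the 5th to the 95th percentile of all genes within 2-fold of its mean level, and dotted lines at 1.5-fold. The point of Slc6a11 at -0.48 lies below its grey bar, which ends at -0.33, and the points of the other 8 genes lie within theirs.

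Slc17a6 (ENSRNOG00000016147), the glutamate marker of the hypothalamus and also of the thalamus, was at 206 FPKM before puberty (15850 fragments) and 188 FPKM at puberty (11301 fragments). It was 0.912 times as high at puberty (interval 0.890 to 0.934), which at the deposited scaling is beyond counting error and small, since 18% of 904 genes at a like level had a ratio as low or lower. Its log2 ratio of -0.13 was -0.035 when centred on genes of a like length, -0.031 with equal neuron markers and 0.27 with equal Actb, so its size and direction depended on the processing. All 6 thalamic markers were lower at puberty (median log2 ratio -0.37), and 3 of 6 were lower with equal Actb. At the deposited scaling 2 of them were past 1.5-fold, Tcf7l2 from 19.9 to 12.2 FPKM and Gbx2 from 4.29 to 2.24 FPKM. With equal neuron markers 1 was (Gbx2, at a log2 ratio of -0.64), and with equal Actb 0 were. Whether thalamic RNA accounts for the difference in Slc17a6 was not tested.

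Slc17a8 (ENSRNOG00000007581) was at 2.09 FPKM before puberty and 1.53 FPKM at puberty, which rest on 126 and 72 fragments. The ratio was 0.731 with an interval of 0.539 to 0.984. Its upper bound is close to 1, and 19.5% of 2512 genes at a like level had a ratio as low or lower. The FPKM of Slc17a8 is thus the least precise of the 9.

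Slc17a7 (VGLUT1), the vesicular transporter of cortical and hippocampal neurons, differed much more than either. It was at 26.2 FPKM before puberty and 12.8 FPKM at puberty, 0.490 times (interval 0.443 to 0.541). The ratio of Slc17a6 to Slc17a7 within a library was 7.86 before puberty and 14.6 at puberty. Neurod6, a transcription factor of telencephalic excitatory neurons, was at 5.08 and 2.36 FPKM, 0.464 times (0.344 to 0.619), while Tbr1 and Emx1 were at 0.515 FPKM or less in each library. Slc17a6 was thus the most abundant vesicular glutamate transporter in both libraries.

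Set against each other, the GABA and glutamate genes had similar ratios at both stages. The ratio of Gad1 plus Gad2 to Slc17a6 was 0.933 before puberty and 0.974 at puberty, 1.04 times with an interval of 1.003 to 1.09. Longer transcripts were lower at puberty in these libraries. Over all genes the median log2 ratio was 0 in the 2278 of 528 to 836 nt and -0.097 in the 2278 of 3955 nt or more. Over those with a mean FPKM of at least 1 it was 0.11 and -0.12 in these classes. When each gene was centred on the median of all genes in its class (10 classes), the change of the ratio was -0.014 in place of 0.062 on the log2 scale, so its direction was not stable. By Slc32a1 in place of the decarboxylases, the ratio to Slc17a6 was 0.163 and 0.146, 0.894 times (interval 0.821 to 0.973).

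**Figure D3:**
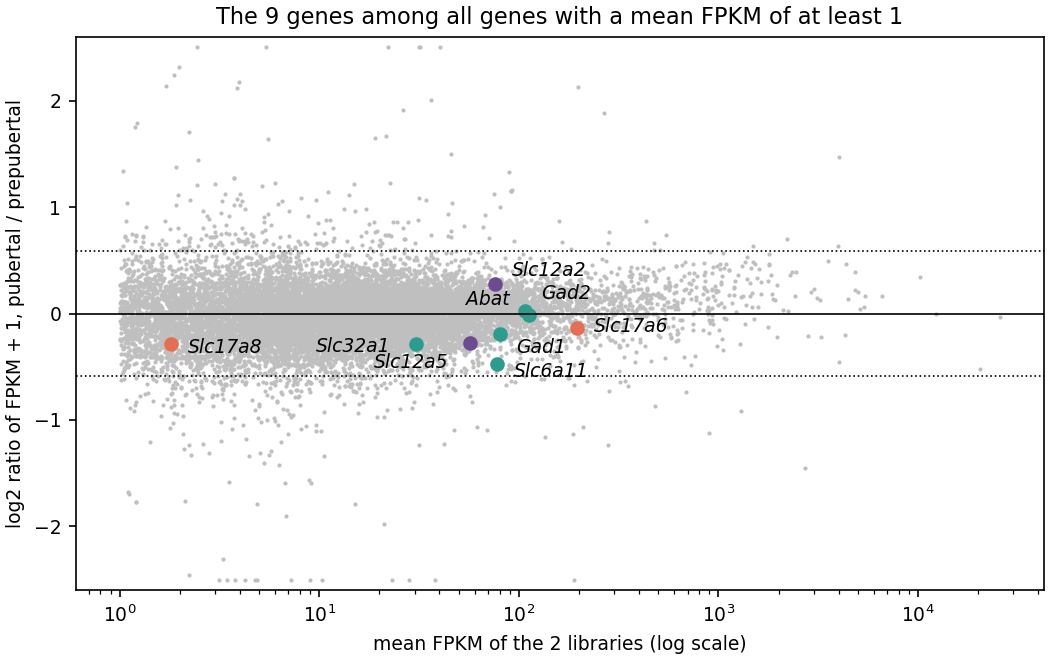
Log2 ratio of FPKM + 1 (pubertal over prepubertal) against the mean FPKM of both libraries (log scale) for the 13804 genes with a mean FPKM of at least 1, with the 9 genes in colour (green GABA, orange glutamate, purple chloride) and dotted lines at 1.5-fold. All 9 genes lie between the dotted lines, and points beyond the vertical range are drawn at its edge.

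The chloride cotransporters differed in opposite directions. Slc12a2 (ENSRNOG00000015971), which brings chloride in with sodium and potassium, was at 68.7 FPKM before puberty (8768 fragments) and 83.5 FPKM at puberty (8329 fragments), 1.22 times (interval 1.18 to 1.253). Slc12a5 (ENSRNOG00000018111), which exports chloride with potassium, was at 62.1 FPKM (4129 fragments) and 51.3 FPKM (2665 fragments), 0.825 times (0.786 to 0.867). Both intervals exclude 1, on opposite sides. Singly, neither stood out, as 8.04% of 2401 genes at a like level had a ratio as high as that of Slc12a2 or higher, and 8.97% of 3111 had one as low as that of Slc12a5 or lower.

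The ratio of Slc12a5 to Slc12a2 was 0.904 before puberty and 0.614 at puberty. The pubertal ratio was 0.679 times the prepubertal one, with a counting interval of 0.641 to 0.719. On the log2 scale the change was -0.56, and it was -0.61 both with the highest transcript of Slc12a5 alone and with values centred within classes of transcript length. A ratio within a library does not depend on the scaling between libraries, but it has no replicate check either. Scaled to equal Actb, Slc12a2 was at a log2 ratio of 0.68, past 1.5-fold, and Slc12a5 was at 0.13. The median of the 13804 genes with a mean FPKM of at least 1 was then 0.36.

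Slc12a5 was the 1 gene of the 9 with more than 1 transcript. ENSRNOT00000024657 (3455 nt) was at 55.4 FPKM before puberty and 44.0 FPKM at puberty. ENSRNOT00000065184 (3476 nt) was at 6.74 and 7.29 FPKM, 10.8% and 14.2% of the gene. The lower level of Slc12a5 at puberty was thus that of its main transcript. The division of fragments between transcripts of one gene is an estimate of Cuffdiff, and its error is not given here.

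Markers of other cells that make Slc12a2 were set beside it. Of 8 oligodendrocyte markers, 4 were higher and 4 lower at puberty, with summed FPKM of 12389 and 13463. With equal Actb all 8 were higher, 3 of them past 1.5-fold. Their median log2 ratio was then 0.34, against 0.36 over the 13804 genes with a mean FPKM of at least 1. Of 6 choroid plexus markers, 4 were higher and 2 lower at puberty, with a median log2 ratio of 0.13, and all 6 were higher with equal Actb. Their summed FPKM was 36.8 and 32.5, and was carried by Ttr, the most abundant transcript of that epithelium, at 29.0 and 23.0 FPKM. Of 8 general neuron markers, 7 were lower at puberty, with summed FPKM of 2303 and 2147, but with equal Actb the median log2 ratio was 0.33 and only Rbfox3 and Stmn2 were lower. Relative to the neuron markers, Slc12a5 had a log2 ratio of -0.17 and Slc12a2 one of 0.38. The part of glia or of neuron number in the ratio of Slc12a5 to Slc12a2 was not tested.

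Of 15 measured genes of other chloride cotransporters, chloride channels and the kinases that act on them, 6 were higher and 9 lower, with a median log2 ratio of -0.084 (12 higher, 3 lower and 0.23 with equal Actb). With Nrn1 and Egr4, which the list also holds and which were set apart after the values were seen, 6 of 17 were higher and 11 lower (median -0.15). At the deposited scaling 0 of the 17 were past 1.5-fold. Oxsr1 passed it with equal neuron markers and with length centring, and Oxsr1 and Stk39 did with equal Actb. The potassium chloride cotransporters Slc12a4 and Slc12a7 were at 10.6 and 2.38 FPKM in the prepubertal library. In the pubertal library they were at 8.99 and 1.84 FPKM, both lower as Slc12a5 was and, like it, higher with equal Actb. The kinases SPAK (Stk39) and OSR1 (Oxsr1) phosphorylate these cotransporters, which turns NKCC1 on and KCC2 down. Stk39 was at 52.05 and 61.5 FPKM, 1.18 times (interval 1.12 to 1.24). Oxsr1 was at 22.9 and 33.3 FPKM, 1.45 times (interval 1.37 to 1.54), the largest log2 ratio of the list at 0.52, or 0.62 when centred within classes of transcript length. Upstream of both, Wnk1 was at 20.4 and 19.5 FPKM, Wnk2 at 6.90 and 5.05 FPKM and Wnk3 at 12.4 and 13.9 FPKM. Thus Stk39 and Oxsr1 were higher at puberty as Slc12a2 was, under each scaling tried. The WNK kinases had no common direction.

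The most abundant of this list were Nrn1, Clcn3 and Stk39. Nrn1, which encodes neuritin and no chloride transporter, was at 116 and 86.9 FPKM, and the vesicular chloride exchanger gene Clcn3 at 83.4 and 87.8 FPKM. The kidney cotransporters Slc12a1 and Slc12a3 were at 0.301 FPKM or less at both stages. Egr4, a transcription factor known to act on Slc12a5, was at 0.407 and 0.195 FPKM on 16 and 6 fragments, so that no difference was detectable at this depth.

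Among the 13 measured genes of other GABA functions, 10 were lower and 3 higher at puberty, with a median log2 ratio of -0.16 (0.18 with equal Actb), and 1 was past 1.5-fold. This was Slc6a13 (GAT-2), a GABA and taurine transporter of the meninges, at 8.72 FPKM before puberty (321 fragments) and 3.71 FPKM at puberty (107 fragments), 0.426 times (interval 0.339 to 0.531). All 8 genes of a list of meninges and fibroblasts, added after the values were seen, were lower as well, 5 of them past 1.5-fold (3 with equal Actb, under which Dcn, Lum and Igf2 were higher). Their summed FPKM was 89.5 and 58.2, and Slc13a4 of the meninges was at 7.63 and 3.31 FPKM. What the amount of meninges in each sample contributed to Slc6a13 was not tested.

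Dbi and Gabbr1 were among the most abundant of the other GABA genes. Dbi, which encodes a peptide that binds a site of the GABA-A receptor, was at 991 and 1059 FPKM. The subunits of the GABA-B receptor, Gabbr1 and Gabbr2, were at 317 and 58.6 FPKM in the prepubertal library and 0.842 and 0.805 times as high in the pubertal one. The scaffold genes of the inhibitory synapse Gphn and Nlgn2 were at 35.9 and 14.7 FPKM and then 0.894 and 0.830 times as high. These 4 genes thus lay on the same side as Gad1 and Slc32a1, and like them were higher with equal Actb.

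Of 12 other glutamate genes, 6 were higher and 6 lower, with a median log2 ratio of -0.014 (0.39 with equal Actb), and Slc17a7 was the 1 past 1.5-fold. With equal Actb 10 of the 12 were higher, 2 of them past 1.5-fold, and Slc17a7 stayed past it on the lower side. Over the 13804 genes with a mean FPKM of at least 1 the median was 0.36 at that scaling. The most abundant were Glul (glutamine synthetase of astrocytes) at 746 and 753 FPKM, Slc1a2, and Glud1 (glutamate dehydrogenase) at 311 and 319 FPKM. At the deposited scaling the differences of Glul and Glud1 were smaller than those of Slc1a2 and Slc6a11, and with equal Actb they were larger, at log2 ratios of 0.42 and 0.44.

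The genes of glycine inhibition, which share the vesicular transporter Slc32a1, had 0 of 5 past 1.5-fold, with 2 higher, 3 lower and a median log2 ratio of -0.032 (4 higher, 1 lower and 0.37 with equal Actb). The glycine transporter of glycine neurons, Slc6a5, was at 0.442 and 0.208 FPKM, and the receptor subunit Glrb at 123 and 121 FPKM. Slc6a5 was thus far below Slc32a1 in both libraries.

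Among 9 transcription factors of GABA neuron lineages, 2 were past 1.5-fold and both were lower at puberty. Lhx8 was at 2.54 and 1.11 FPKM on 79 and 27 fragments. Dlx6 was at 6.17 and 0.450 FPKM, on transcripts of 231 and 528 nt, for which 1 fragment is a large FPKM and fragment numbers were not derived. Dlx1, the best covered of the Dlx genes, was at 7.16 and 6.75 FPKM, 0.942 times (interval 0.803 to 1.10), and Isl1 was at 5.69 and 8.01 FPKM, 1.41 times (1.06 to 1.88). The 9 factors had a median log2 ratio of -0.076 (0.28 with equal Actb) and no common direction.

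**Figure D4:**
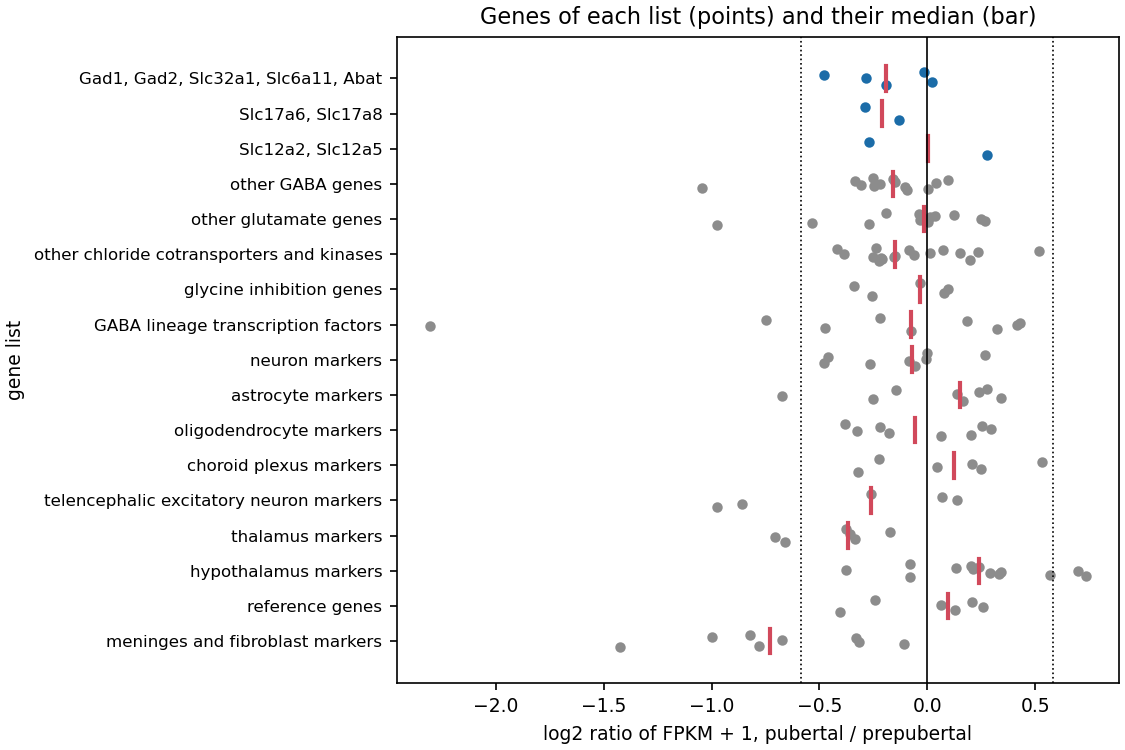
Log2 ratio of FPKM + 1 (pubertal over prepubertal) for each gene of each list (points, blue for the 9 genes) with the median of the list (red bar) and dotted lines at 1.5-fold. The medians lie at -0.16 for other GABA genes, -0.014 for other glutamate genes and -0.37 for thalamus markers, and at -0.73 for the list of meninges and fibroblasts that was added after the values were seen.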

How the data were processed

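RNA-seq of rat hypothalamus was used, 1 prepubertal and 1 pubertal sample in the labels. Strand-specific libraries had been made by the authors after depletion of ribosomal RNA. Paired reads were aligned with TopHat, transcripts came from Scripture and from Cufflinks, and the authors estimated FPKM with Cuffdiff (both Cuff tools 2.1.1 in the submitters' processing notes). The build is Rnor_5.0 in the submitters' notes, and the methods link an Rnor_6.0 annotation, so no coordinates are given. The deposited FPKM are scaled for transcript length and library size. The authors' table also holds fold changes, p-values and q-values of their comparison, which were not used. It gave gene names, lengths and a second copy of the FPKM, which differed for 13 transcripts, none (0) of a member.

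FPKM were summed per gene and log2 ratios taken with a pseudocount of 1. Fragment numbers were fitted on genes with 1 transcript of at least 700 nt and not derived for genes with a shorter one. Intervals of folds are exact (Clopper-Pearson) and those of ratios of ratios follow from normal errors on the log scale, both at 95%. The steps were tested on simulated libraries, where 200 of 200 genes changed by 2-fold were past 1.5-fold in the right direction.

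The 9 genes and all lists were chosen with earlier results of these data known. Named are the 9 members, listed genes past 1.5-fold, and the 3 most abundant of the GABA, glutamate and chloride lists; other listed genes were named after their values were seen, as was the ratio of Slc32a1 to Slc17a6. Some listed genes, 1 of them among the 3 most abundant, are counted but not reported here by name. Of 128 listed genes, 4 were not in the table, and 8 more of meninges and fibroblasts were added after values were seen. Values were computed in Python 3.11.15 with pandas 2.3.3, numpy 2.4.6 and scipy 1.17.1, and drawn with matplotlib 3.10.9.

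Alternatives were another pseudocount, fold, filter, scaling, transcript choice, length centring and copy of the FPKM. Tables of lncRNAs were not used here.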

Additional observations from a re-analysis of the deposited data

How the results depend on the processing

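Scaling to equal Actb multiplied the pubertal FPKM by 1.32, a log2 shift of 0.41, and scaling to equal neuron markers by 1.07. With equal Actb, 2 of the 9 genes were lower at puberty in place of 7, 1 (Slc12a2) was past 1.5-fold in place of 0, the median log2 ratio of the 9 was 0.21 in place of -0.19, and 2 of 16 lists had a median below 0 in place of 11 (3 and 12 of 17 with the added list of meninges and fibroblasts). With equal neuron markers these were 6 genes, 0 genes, -0.094 and 6 lists. The share of all genes past 1.5-fold was computed at neither of these 2 scalings. The median log2 ratio of the 13804 genes with a mean FPKM of at least 1 was 0.36 with equal Actb and 0.085 with equal neuron markers. Centred within 10 classes of transcript length, the log2 change of Gad1 plus Gad2 to Slc17a6 was -0.014 in place of 0.062. With a pseudocount of 0.1, the highest transcript of each gene, equal medians (a factor of 1.004), length centring or the FPKM of the comparison table, 7 of the 9 genes were lower and 0 past 1.5-fold. With a pseudocount of 0.1, the genes past 1.5-fold were 1 higher and 2 lower in the chloride list (0 and 0 with 1), 0 and 1 in the glycine list (0 and 0), 1 and 3 among lineage factors (0 and 2), 1 and 0 among choroid plexus markers (0 and 0) and 0 and 3 among telencephalic markers (0 and 2). No paired analysis was possible because each stage has 1 column, and for the same reason no replicate could be left out. Depth limits Slc17a8 most.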
